A study of Bos taurus with 27 samples.

Results

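The colon of calves born to multiparous cows (C) was compared with that of calves born to primiparous heifers (H), with the timing of the first colostrum meal as a covariate. All 27 calves of the series entered the comparison, 15 C and 12 H, and 14625 of 24616 Ensembl genes were tested, those that reached 1 CPM (gene counts scaled to a common library total) in 12 or more of the 27 calves. Every calf was a singleton male Holstein, removed from its dam at birth and killed at 51 h of age, and every calf received pooled, pasteurized colostrum by tube and milk replacer afterwards. The first colostrum meal came at 0 h in TRT0, at 6 h in TRT6 and at 12 h in TRT12, and 4 H and 5 C calves in each made up the groups TRT0_H to TRT12_C. Each calf gave 1 RNA library from a segment of colon taken just past the ileo-cecal junction, so p-values rest on the spread between animals. The parity of each dam was taken from the sample sheet supplied with the study, whereas the colostrum treatment came from the deposited labels.

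A heifer at her first calving is still growing and typically has a smaller calf and less colostrum than an older cow. The newborn calf carries almost no antibody of its own and takes up immunoglobulin from colostrum in the first hours of life, while its colon is being populated by bacteria and its mucosal immune cells are few. Since every calf drank the same pooled colostrum, the dam's own colostrum was not part of the comparison.

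Gene counts summed to between 1163791 and 4202593 per calf. The mean total was 2127174 ± 587574 (SD, n = 15) in C and 2180385 ± 828321 (SD, n = 12) in H, and the totals did not differ beyond the spread between calves (permutation test, two-sided, p = 0.849). Lanes 6 and 7 of the first sequencing run each held 6 C and 5 H calves, and lane 1 of the second run held 3 C and 2 H calves, the 2 H calves being TRT12 and none of the C calves being so. Lane 6 held 2 TRT0_H calves and no TRT0_C calf, so a parity difference within lane 6 rests on TRT6 and TRT12 alone. Values of lanes 6 and 7 therefore differ in treatment as well as in lane. The tissue was the whole wall. The 21 tested smooth muscle genes summed to a median of 18029 CPM in C (12507 to 25359) and 17190 CPM in H (14089 to 22909), and the 16 tested epithelial genes to 5132 CPM in C (3836 to 6035) and 4841 CPM in H (3927 to 6914). In such bulk tissue, fewer cells of a type and less RNA per cell cannot be told apart.

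No gene was called between C and H. The threshold was an adjusted p of 0.10 with a fold change of 1.2 in edgeR's quasi-likelihood test, and 0 of 14625 genes (0%) met both, the smallest adjusted p being 0.524. At an unadjusted p under 0.05 there were 196 genes higher in C (1.34%) and 171 higher in H (1.17%). Together these were 2.51% of the genes tested, where 5% would pass if no gene differed. Without TMM scaling factors, which correct for the composition of a library, the same threshold marked 299 genes higher in C and 73 higher in H, and the median of all genes moved from -0.002 to 0.05 on the log2 scale, so the balance of directions depended on the scaling. Other tools gave 2 calls (edgeR's likelihood ratio test), 1 (edgeR's exact test), 1 (DESeq2) and 0 (limma-voom), and every one of these calls was MIR2904-1 or ENSBTAG00000031825, described below.

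**Figure D1:**
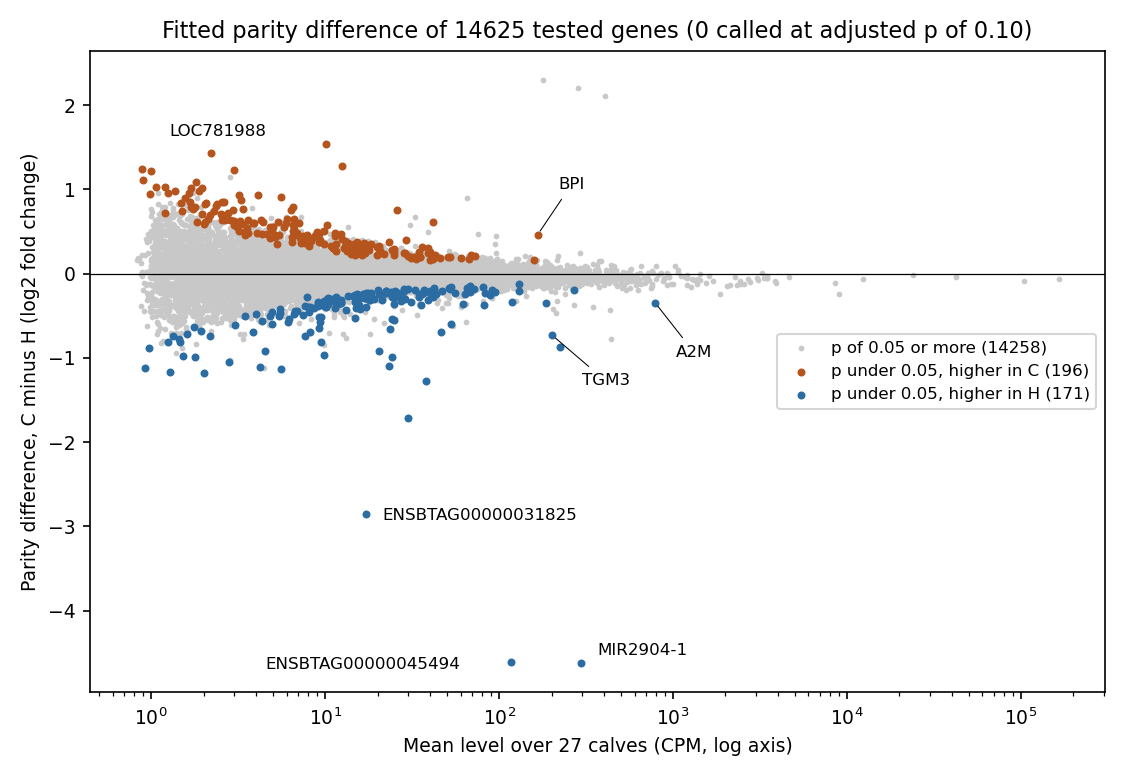
Fitted parity difference (C minus H, log2 fold change) of each of the 14625 tested genes against its mean CPM over 27 calves on a log axis. Orange and blue points are the 196 and 171 genes at an unadjusted p under 0.05, and the cloud narrows from left to right, with MIR2904-1, ENSBTAG00000045494 and ENSBTAG00000031825 far below it.

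The intervals bound the size of the difference gene by gene, without adjustment for the number of genes. They do not show which sizes could have been called. The 95% interval of the parity difference lay within 1.5-fold either way for 10589 genes (72.4%) and within 2-fold for 13423 genes (91.8%). Among genes with a mean of 10 CPM or more, 94.6% had an interval within 1.5-fold, against 32.5% of those under 10 CPM. An interval within 1.2-fold, the size set for a call, was reached by 2889 genes (19.8%), so a difference of that size was not excluded for most genes. Only 30 genes had a fitted difference of 2-fold or more, 16 higher in C and 14 higher in H, and 24 of these 30 had an unadjusted p under 0.05.

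The 3 genes with the lowest p were higher in H and were high in some calves only. They are described here after their values were seen. MIR2904-1 (ENSBTAG00000047042), annotated as a microRNA gene, exceeded 100 CPM in 6 of 12 H calves and 1 of 15 C calves. In TRT0_H its level was 3.38, 13.2, 928 and 0 CPM, in TRT6_H 0.451, 4438, 168 and 23.5 CPM, and in TRT12_H 4.56, 841, 178 and 999 CPM. In C it lay between 0.445 and 173.5 CPM with a median of 4.30 CPM, so the parities overlapped, and 6 H calves were within the C range. The fitted difference of MIR2904-1 was -4.62 (SE 1.004, adjusted p = 0.524 in edgeR's quasi-likelihood test), and it moved to -3.35 without the highest calf, TRT6 replicate 2. Within lanes it was -5.30 (SE 1.85) in lane 6 and -2.71 (SE 1.29) in lane 7. The libraries were not made for small RNA, and whether these counts of MIR2904-1 reflect a mature microRNA was not tested.

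ENSBTAG00000045494 was above 100 CPM in 4 H calves, 1201 and 718 CPM in TRT0_H and 776 and 263 CPM in TRT6_H, and in 1 C calf at 157 CPM. Its medians were 1.74 CPM in H and 2.02 CPM in C, and no TRT12_H calf exceeded 2.38 CPM. The difference was -4.62 (SE 1.01, adjusted p = 0.524 in edgeR's quasi-likelihood test) over all calves, -4.58 (SE 0.89) within lane 6 and 0.97 (SE 2.34) within lane 7. Without that 1 C calf (TRT0 replicate 8) it was -6.54 with an adjusted p of 0.0334, the only case among 27 in which leaving out 1 calf brought a call. ENSBTAG00000031825 exceeded 20 CPM in 4 H calves and 1 C calf. Its highest values were 189 CPM in TRT12_H and 83.0 CPM in TRT6_H, against 21.8 CPM at most in C, and its difference was -2.86 (SE 0.66, adjusted p = 0.704), or -2.07 without the highest calf, TRT12 replicate 1. Neither identifier has a symbol in the tables used, so no function is given for them.

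**Figure D2:**
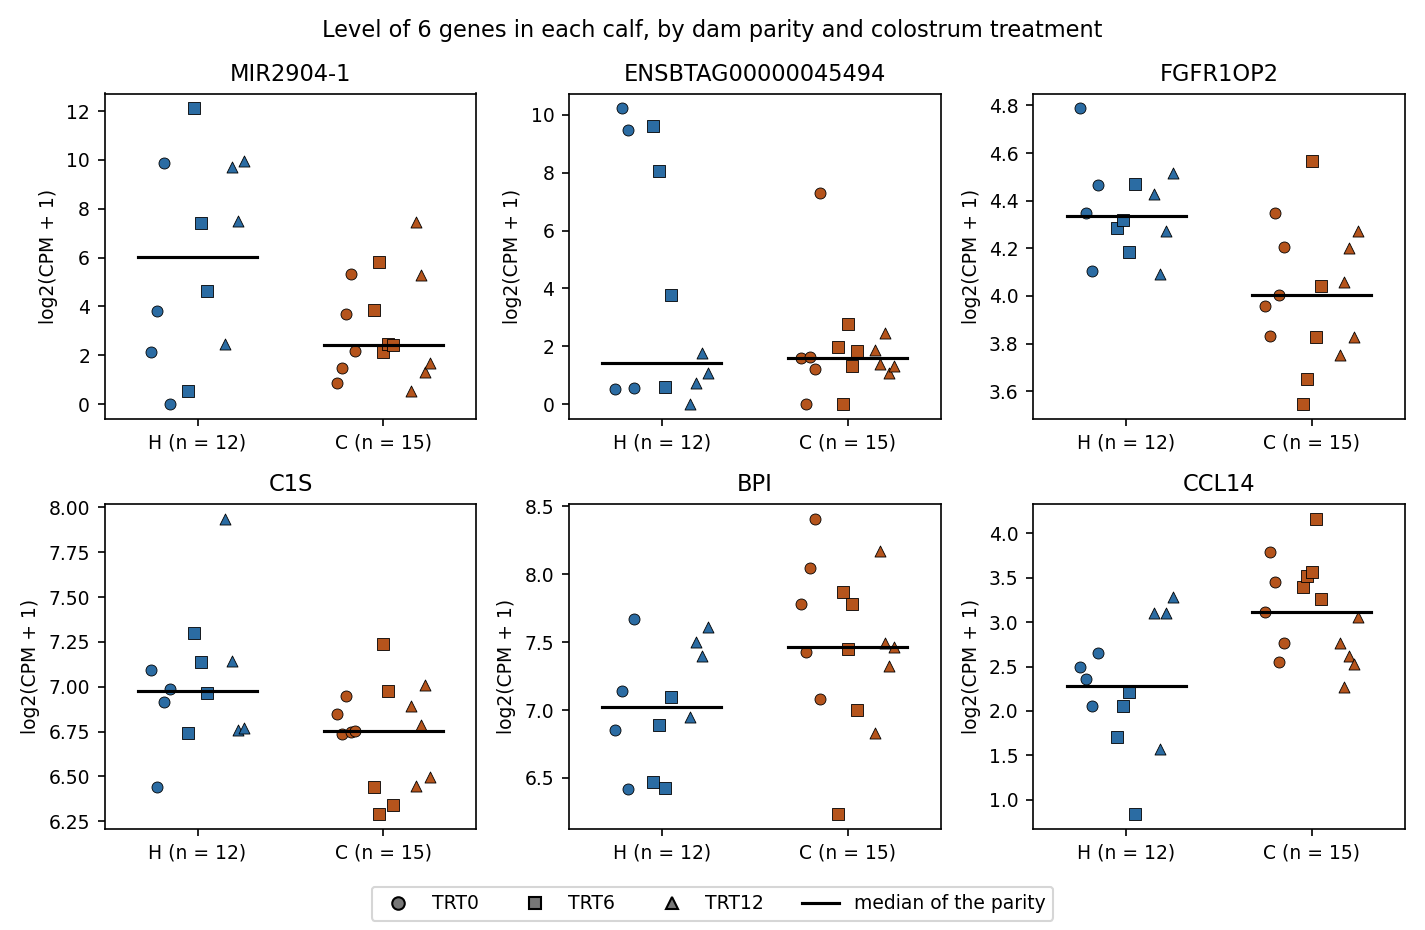
Level of 6 genes in each calf as log2(CPM + 1), with H calves in blue (n = 12) and C calves in orange (n = 15), the treatment by the shape of the point and the median of each parity as a bar. MIR2904-1 and ENSBTAG00000045494 were high in some calves, mostly H, whereas the other 4 genes showed overlapping ranges with shifted medians.

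The genes that follow had the lowest p in each direction among those with a symbol, a mean of 2 CPM or more and the same sign in all 3 treatments. Since a same sign in all treatments was part of that choice, it is no result of theirs. None passed the adjusted threshold, each adjusted p in edgeR's quasi-likelihood test being 0.9998, and values are therefore given without a call.

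Among those with larger values in H, FGFR1OP2 ranged from 16.1 to 26.6 CPM in H (median 19.2) and from 10.7 to 22.7 CPM in C (median 15.1). Only 2 of 15 C calves exceeded the H median and 10 lay under the lowest H calf. The difference was -0.40 (SE 0.12), -0.42 (SE 0.25) in lane 6 and -0.54 (SE 0.19) in lane 7. C1S, a serine protease that starts the classical complement pathway, ranged from 85.8 to 244 CPM in H (median 125) and from 77.2 to 150 CPM in C (median 107). Its difference was -0.34 (SE 0.10), or -0.24 without the H calf at 244 CPM, TRT12 replicate 1. SCPEP1, a lysosomal serine carboxypeptidase, lay between 25.9 and 37.7 CPM in H and between 17.1 and 37.2 CPM in C, with 9 C calves under the lowest H calf (-0.29, SE 0.10).

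TGM3, a transglutaminase that cross-links proteins of surface epithelium, had a median of 212 CPM in H (70.0 to 534) and 131 CPM in C (63.9 to 335), and its difference of -0.73 (SE 0.27) was -1.42 within TRT6 and -0.36 and -0.41 within TRT0 and TRT12. The 4 highest calves were all H, and the other H calves lay within the C range. NME1, a nucleoside diphosphate kinase, had a difference of -0.43 (SE 0.16), and ALDH7A1, an aldehyde dehydrogenase of lysine breakdown, one of -0.22 (SE 0.08). PCDH1, an adhesion protein of epithelial cells, differed by -0.25 (SE 0.09), TMEM209 by -0.29 (SE 0.11), TSPYL1 by -0.24 (SE 0.08) and TDRD6, best known from germ cells, by -0.58 (SE 0.19). LOC522763 differed by -1.11 (SE 0.35), by -1.73 within TRT0, -0.52 within TRT6 and -0.59 within TRT12. Its difference was -0.18 in lane 6, which held no TRT0_C calf, and -1.77 in lane 7. ENSBTAG00000009084, which has no symbol, had the next lowest p after those 3 over all genes, with a median of 35.3 CPM in H and 29.1 CPM in C (-0.34, SE 0.09).

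Among those with larger values in C, BPI, the bactericidal protein that binds bacterial lipopolysaccharide, had a median of 176 CPM in C (74.2 to 339) and 129 CPM in H (84.8 to 202). Of the C calves, 12 exceeded the H median and 6 exceeded the highest H calf, while the lowest calf of all was a C calf. The difference was 0.46 (SE 0.18), which is 1.38-fold (95% interval 1.07 to 1.79), and by treatment it was 0.64 (TRT0), 0.58 (TRT6) and 0.18 (TRT12). CHD6, a chromatin remodeller, had medians of 81.0 CPM in C and 64.8 CPM in H, and 8 C calves exceeded the highest H calf (0.21, SE 0.07). TIMM22, a channel of the inner mitochondrial membrane, lay above the H median in 15 of 15 C calves, with 7 H calves under the lowest C calf and a difference of 0.45 (SE 0.17).

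COCH, a secreted matrix protein, had a median of 2.94 CPM in C and 2.17 CPM in H, and 7 C calves exceeded the highest H calf at 3.30 CPM. Its difference was 0.94 (SE 0.34), or 0.74 without the highest C calf, TRT6 replicate 6, which stood at 12.6 CPM. The difference of LOC781988 was 1.44 (SE 0.56) over all calves and 0.91 without that same calf, which had 16.3 CPM against 2.60 CPM at most in H. ING5, a reader of histone methylation, differed by 0.47 (SE 0.18), EIF2B3, a subunit of a translation initiation factor, by 0.39 (SE 0.17), and GPATCH8 by 0.18 (SE 0.07). The other 4 genes had medians under 4 CPM in both parities, namely KCNH6, a potassium channel (0.75, SE 0.31), DGKB, a diacylglycerol kinase (0.70, SE 0.28), FBXO15 (0.70, SE 0.31) and NT5M, a mitochondrial nucleotidase (0.62, SE 0.29).

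**Figure D3:**
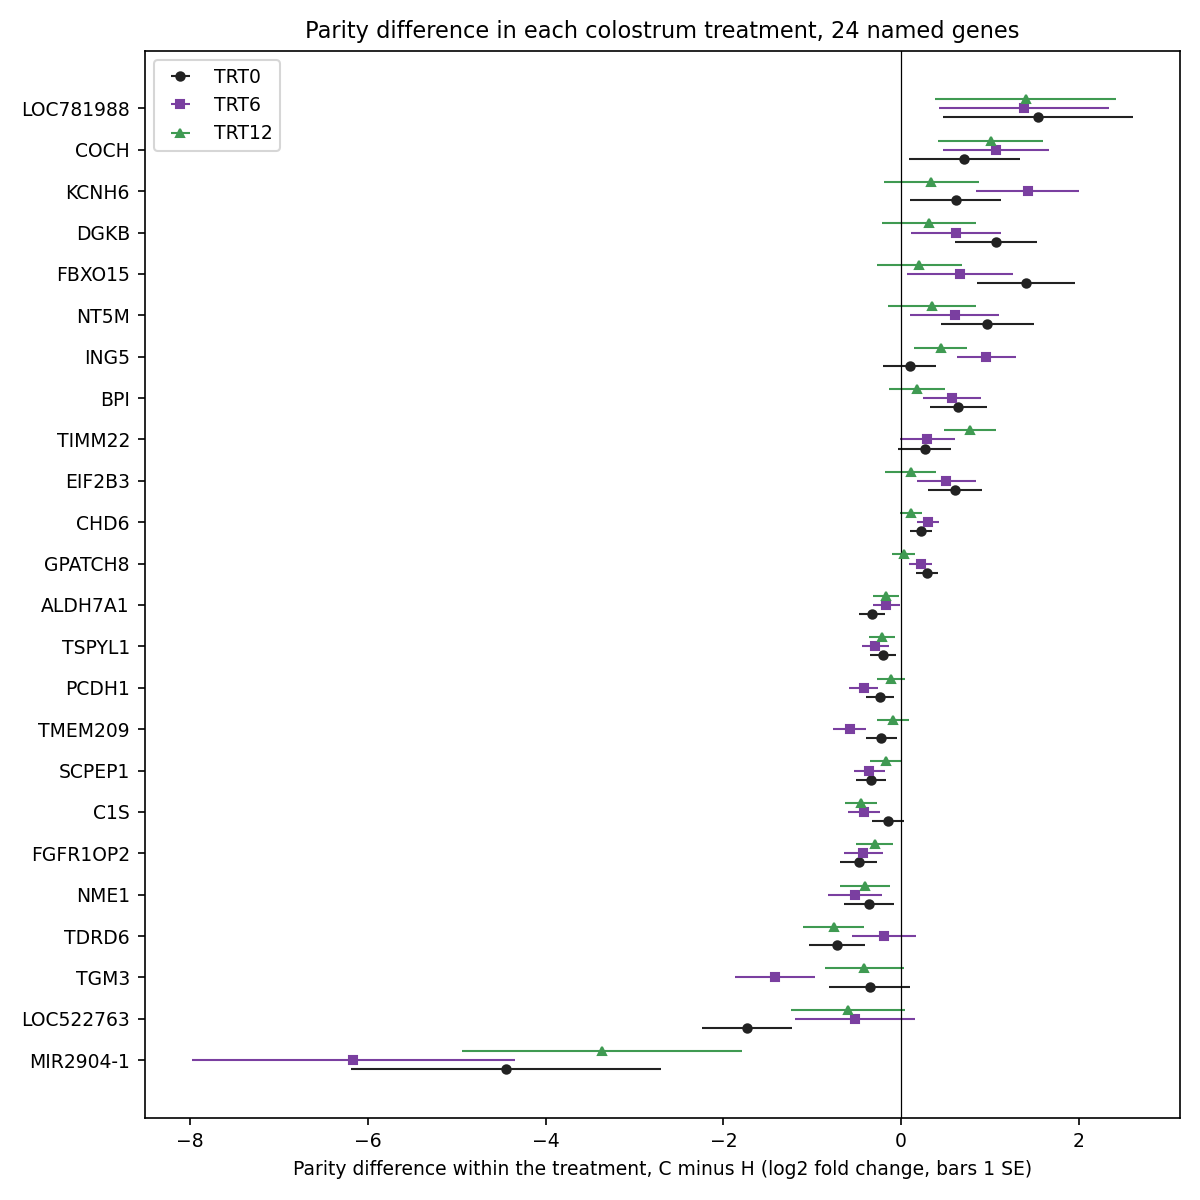
Parity difference (C minus H, log2 fold change, bars 1 SE) of the 24 genes within each colostrum treatment, from the fit of 6 group means. The points lie on 1 side of 0 for each gene because that was part of how the genes were chosen, and for 8 of the 12 genes larger in C the TRT12 bar reaches or crosses 0.

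Gene groups were read against a background that was itself uneven. Of the 3838 tested genes with a symbol, 2310 (60.2%) had a larger fitted value in H, with a median difference of -0.02, whereas over all tested genes 7219 were larger in C and 7406 in H, with a median of -0.002. Without TMM factors the median of the genes with a symbol was 0.02. Several group medians below change sign with that scaling.

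For immune genes, antigen presentation had 14 tested members and all 14 were larger in H, with a median of -0.12, and 13 of 14 without TMM factors, with a median of -0.07. Without TRT6 replicate 2, an H calf, the median was -0.06. At an unadjusted p under 0.05 there were 2, both larger in H, against 1.17% of all genes. BOLA-DQA5, a major histocompatibility class II chain, had a median of 11.1 CPM in H (3.28 to 23.6) and 6.78 CPM in C (0 to 15.6), with a difference of -0.82 (SE 0.32). Such genes are polymorphic and have near-identical copies, so the reads each calf gives to this identifier are uncertain. ERAP1, the aminopeptidase that trims peptides for class I, ranged from 55.2 to 159 CPM in H and from 42.5 to 93.0 CPM in C (-0.37, SE 0.14), and was -0.28 without TRT12 replicate 1 and -0.26 without TRT6 replicate 2. By treatment the median of the antigen presentation group was -0.02 (TRT0), -0.33 (TRT6) and -0.06 (TRT12).

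The interferon response group had 6 tested members of a list of 43, 5 of them larger in H, with a median of -0.08 that was -0.01 without TRT12 replicate 1, an H calf. IRF1, a transcription factor of that response, reached 240 CPM in that calf, and 4 H calves exceeded the highest C calf at 115 CPM. Its parity medians ran the other way, 77.2 CPM in H and 79.7 CPM in C, and its fitted difference was -0.29 (SE 0.16), or -0.14 (SE 0.14) without that calf. The same calf had the highest ERAP1, C1S and DUOX2, an oxidase of the mucosal surface, whose difference moved from -0.77 (SE 0.43) to -0.42 (SE 0.42).

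Cytokines, chemokines and acute phase genes had 14 tested members, 6 larger in C and 8 in H (median -0.06), with 1 at an unadjusted p under 0.05 in each direction. Over all genes the shares at that p were 1.34% toward C and 1.17% toward H. CCL14, a chemokine that attracts monocytes, was the 1 larger in C, with a median of 7.68 CPM in C (3.84 to 17.0) and 3.88 CPM in H (0.785 to 8.75) and a difference of 0.79 (SE 0.27). STAT3, which carries signals of interleukins, was the 1 larger in H, with a difference of -0.20 (SE 0.09) and medians of 268 CPM in H and 264 CPM in C. Of the 8 representative genes of mucosal immunity listed in the methods of the study, STAT3 alone could be matched to an identifier. Innate sensing and antimicrobial genes had 8 tested members, 3 larger in C and 5 in H, with BPI at the upper end and DUOX2 at the lower. The median of the group was -0.16, or -0.08 without TRT6 replicate 2, and 4 of 8 were larger in H without TMM factors. LYZ1, a lysozyme, had a difference of -0.32 (SE 0.21), or -0.12 without TRT0 replicate 6, an H calf at 549.6 CPM.

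Immunoglobulin transport had 3 tested members of a list of 10, 2 larger in C (median 0.03), and none at an unadjusted p under 0.05. PIGR, the receptor that carries polymeric immunoglobulin across epithelium, had a median of 1235 CPM in C (677 to 1951) and 1320 CPM in H (795 to 1929), and a difference of -0.07 (SE 0.16), or 0.95-fold (95% interval 0.756 to 1.19). FCGRT, the neonatal receptor for immunoglobulin G, had 160 CPM in C and 151 CPM in H (0.03, SE 0.08), or 1.02-fold (95% interval 0.906 to 1.15). Lymphocyte genes (3 tested of a list of 40, 2 larger in C, median 0.08) had no member at an unadjusted p under 0.05. Nor had genes of macrophages, dendritic and mast cells (9 tested of a list of 27, 6 larger in H, median -0.09, or 0.04 without TRT12 replicate 1). CPA3, a mast cell protease, had a difference of -0.41 (SE 0.26).

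**Figure D4:**
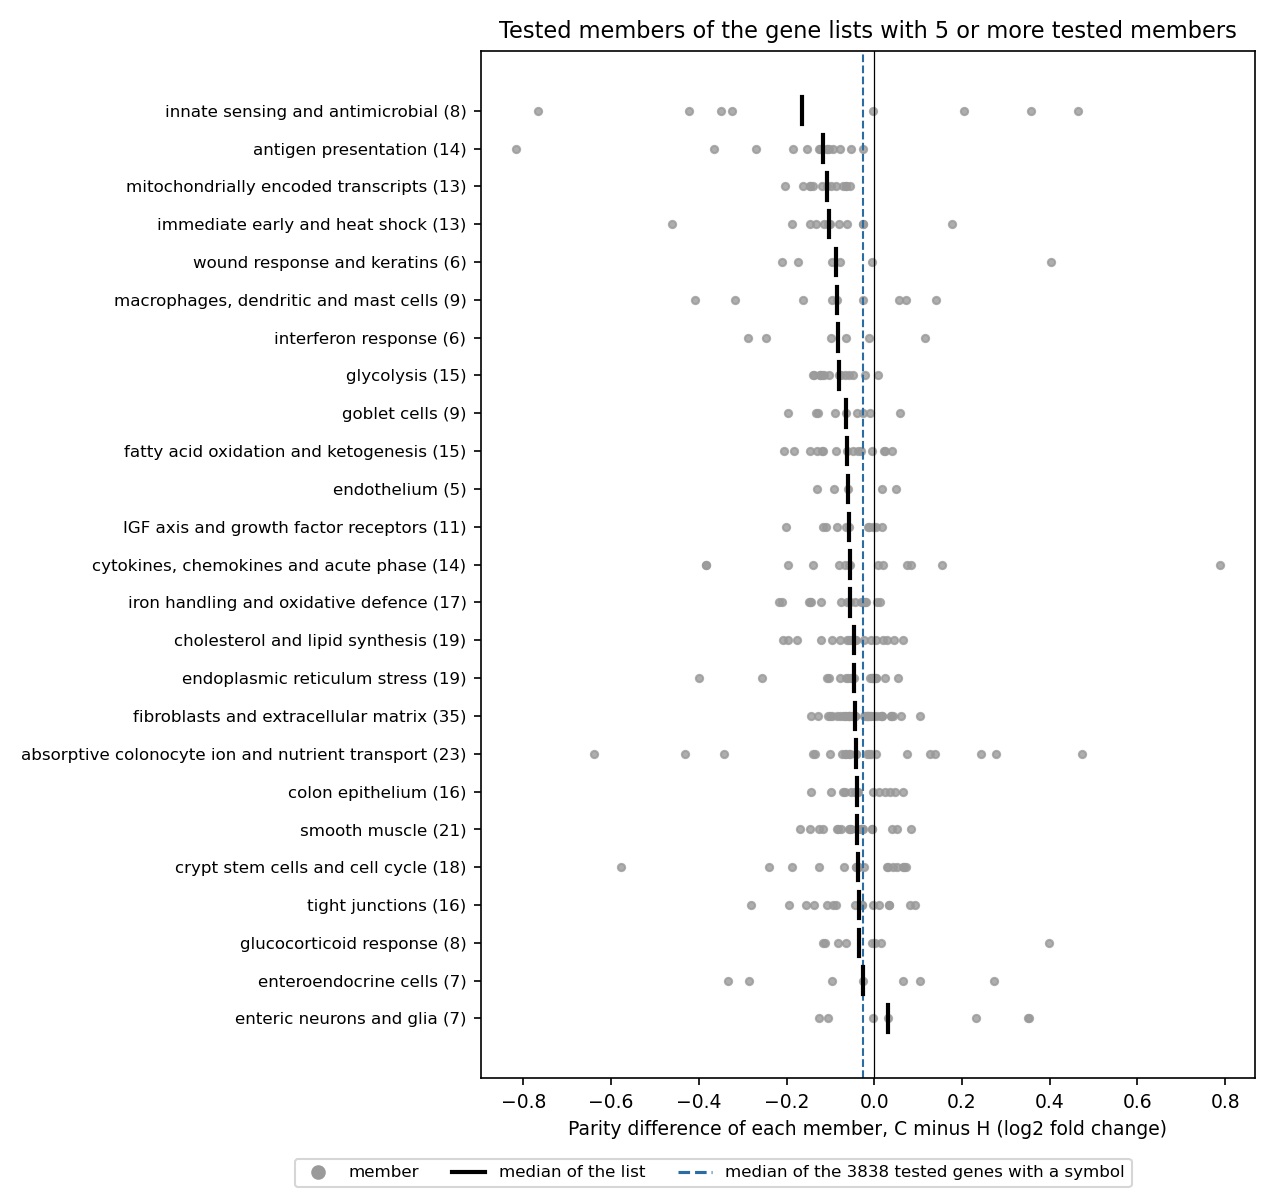
Parity difference (C minus H, log2 fold change) of every tested member of the gene lists with 5 or more tested members, with the number tested in brackets, the list median as a black bar and the median of the 3838 tested genes with a symbol as a dashed line. Medians run from -0.16 for innate sensing to 0.03 for enteric neurons and glia, and members spread on both sides of 0 in most lists.

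For the epithelium, 11 of 16 general markers were larger in H with a median of -0.04, which was 0.01 without TMM factors. CDH17, an intestinal cadherin, had medians of 764 CPM in H and 738 CPM in C (-0.14, SE 0.12, or -0.09 without TRT6 replicate 7). Goblet cell genes (8 of 9 larger in H, median -0.07), absorptive transport (16 of 23, median -0.04), crypt stem cells and cell cycle (11 of 18, median -0.04) and tight junctions (11 of 16, median -0.04) held 1 gene at an unadjusted p under 0.05. It was MARVELD2, the tricellular junction protein tricellulin, with a median of 17.8 CPM in H and 16.6 CPM in C (-0.28, SE 0.12). Of all tested genes, 2.51% had such a p. Without TMM factors fewer of each were larger in H, 5 of 16 general markers, 5 of 9 goblet cell genes, 12 of 23 transport genes, 5 of 18 crypt genes (median 0.01) and 7 of 16 tight junction genes (median 0.01). The goblet cell and crypt medians were 0.02 and 0.01 without TRT6 replicate 2. CLDN2, a pore-forming claudin, had a difference of -0.16 (SE 0.11), and OLFM4, a marker of crypt base cells, one of -0.24 (SE 0.15), which was -0.09, -0.73 and 0.12 within TRT0, TRT6 and TRT12 and -0.14 over all calves without TRT6 replicate 2. Toward C, SLC26A3, the chloride and bicarbonate exchanger of colonocytes, differed by 0.24 (SE 0.15).

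Of 7 enteroendocrine genes, 3 were larger in C and 4 in H, with a median of -0.03 that was 0.01 without TMM factors. Both genes at an unadjusted p under 0.05 were larger in H, where 1.17% of all genes were. SST, the hormone somatostatin, had a median of 10.7 CPM in H (6.19 to 13.98) and 7.99 CPM in C (6.202 to 13.9), and its difference of -0.33 (SE 0.15) was 0.06 in lane 6 and -0.39 in lane 7. PCSK1, which processes prohormones, had 11.5 CPM in H and 9.35 CPM in C (-0.28, SE 0.14). CHGA, the granule protein of all such cells, differed by -0.10 (SE 0.13), or -0.05 without TRT0 replicate 6.

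Genes of the deeper wall showed no call and no member at an unadjusted p under 0.05. Smooth muscle genes were larger in H for 18 of 21 members with a median of -0.04, but for 10 of 21 without TMM factors, and their median was -0.23 in TRT0 and 0.11 in TRT6. MYH11, the smooth muscle myosin, differed by -0.06 (SE 0.13). Fibroblast and matrix genes were larger in H for 26 of 35 members (median -0.04), and for 14 of 35 without TMM factors, with COL3A1, a fibrillar collagen, at -0.04 (SE 0.11). Their median ran from -0.27 in TRT0 to 0.24 in TRT12. Endothelial genes (3 of 5 larger in H, median -0.06) and enteric neurons and glia (4 of 7 larger in C, median 0.03) held none at an unadjusted p under 0.05 either. Of the adipocyte list 2 members were tested, both larger in H (median -0.16), and ADIPOQ, a hormone of fat cells, ranged from 31.4 to 231 CPM in C and from 2.35 to 335 CPM in H.

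Blood and plasma genes had 4 tested members, 3 larger in H. Over all genes, 1.17% were larger in H at an unadjusted p under 0.05. A2M, the protease inhibitor alpha-2-macroglobulin, was the 1 at an unadjusted p under 0.05, with a median of 921 CPM in H (525 to 1230) and 714 CPM in C (418 to 907). No C calf exceeded the H median and 6 H calves exceeded the highest C calf. The difference of -0.35 (SE 0.12, adjusted p = 0.9998 in edgeR's quasi-likelihood test) was -0.37 within TRT0, -0.73 within TRT6 and 0.06 within TRT12. HBG, the fetal globin chain, had a difference of -0.54 (SE 0.34) at levels under 10 CPM, and CA1, a carbonic anhydrase of red cells that colonocytes also make, one of 0.47 (SE 0.31), or 0.21 without TRT0 replicate 4.

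In metabolism and stress, 13 of 13 mitochondrially encoded transcripts were larger in H, with a median of -0.11 and, without TMM factors, -0.07 with the same count. Their summed level had a median of 36173 CPM in H (31816 to 41470) and 34276 CPM in C (27725 to 41641), so the H range lay inside the C range. None reached an unadjusted p under 0.05, and these transcripts come from 1 circular genome and are not independent of each other. ATP8, a subunit of ATP synthase, had the lowest p of them with -0.20 (SE 0.12), ND4L, a complex I subunit, differed by -0.15 (SE 0.10) and COX1, a subunit of cytochrome oxidase, by -0.06 (SE 0.10). Glycolysis genes were larger in H for 14 of 15 members (median -0.08) and for 13 of 15 without TMM factors, with PKM, the last kinase of the pathway, at -0.14 (SE 0.09). Immediate early and heat shock genes were larger in H for 12 of 13 members (median -0.10) and for 10 of 13 without TMM factors, with the chaperones HSPA8 at -0.13 (SE 0.10) and HSP90AB1 at -0.12 (SE 0.09), which were -0.05 and -0.07 without TRT6 replicate 2, when the median of the group was -0.05.

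In the remaining groups 1 gene had an unadjusted p under 0.05, where 2.51% of all tested genes did. Fatty acid oxidation and ketogenesis had 12 of 15 members larger in H (median -0.06), among them HADHB at -0.21 (SE 0.11) and ETFDH at -0.18 (SE 0.10). Cholesterol and lipid synthesis had 14 of 19 (median -0.05), endoplasmic reticulum stress 15 of 19 (median -0.05), wound response and keratins 5 of 6 (median -0.09), glucocorticoid response 5 of 8 (median -0.03) and the circadian clock 1 of 4 (median 0.07). Iron handling and oxidative defence had 15 of 17 (median -0.05), and FTL, the light chain of ferritin, was its 1 member at an unadjusted p under 0.05, with a difference of -0.22 (SE 0.10). Growth factor genes, which bear on the size of the newborn, had 9 of 11 members larger in H (median -0.06), and the imprinted genes 4 of 4 (median -0.04), with IGF2R, a receptor that clears insulin-like growth factor 2, at -0.11 (SE 0.09). Without TMM factors the counts larger in H were 9 of 15 for fatty acid oxidation, 9 of 19 for cholesterol, 10 of 19 for endoplasmic reticulum stress, 4 of 6 for wound response, 4 of 8 for the glucocorticoid response, 0 of 4 for the clock, 9 of 17 for iron handling (median -0.01), 6 of 11 for growth factors and 2 of 4 for imprinted genes. Both the cholesterol and the endoplasmic reticulum stress medians were 0.03 without TRT6 replicate 2.

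Whether the parity difference depended on the colostrum treatment was tested as an interaction in the model of 6 groups. At an unadjusted p under 0.05 there were 397 of 14625 genes, a smaller share than the 5% that would pass if no gene had an interaction. After adjustment the test called 1 of 14625 genes (0.00684%). The gene was RGS2 (ENSBTAG00000034366), a brake on signalling through G proteins, with an adjusted p of 0.063 in edgeR's quasi-likelihood test. In TRT0 its level was 1.27, 0.412, 0 and 1.44 CPM in H and 4.04, 8.38, 6.29, 10.2 and 7.55 CPM in C, so every C calf was above every H calf. In TRT6 it was 7.22, 10.3, 5.73 and 3.14 CPM in H and 2.37, 6.06, 2.37, 4.14 and 3.44 CPM in C, with overlapping ranges. In TRT12 it was 9.13, 1.31, 4.997 and 4.92 CPM in H and 0, 0.959, 0, 2.20 and 1.47 CPM in C, with 3 of 4 H calves above every C calf. The parity difference of RGS2 was thus 3.04 (SE 0.63) in TRT0, -0.91 (SE 0.52) in TRT6 and -2.22 (SE 0.61) in TRT12, and -0.15 (SE 0.47) over all treatments.

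RGS2 rested on few reads, 0 to 23 per calf, and the study had already singled it out in these calves, so the call is not independent evidence. With sequencing lane as a further term in edgeR its adjusted p was 0.345, limma-voom gave 0.378 and DESeq2 9.06e-06. Leaving out 1 calf at a time moved it between 0.00767 and 0.376, and the call was lost in 15 of 27 cases. CCL14, which the study had also named, had parity differences of 0.85 (SE 0.37) in TRT0, 2.09 (SE 0.42) in TRT6 and -0.28 (SE 0.37) in TRT12. Its values in TRT6 did not overlap, with 0.785 to 3.65 CPM in H and 8.59 to 17.0 CPM in C. That difference had an adjusted p of 0.428 in edgeR's quasi-likelihood test, so it was not called here, whereas the study called it. The study also called RGS2 between the parities within TRT0. An adjusted p of RGS2 within single treatments is not reported here, so its values by treatment are given without a call. The interaction of CCL14 had an adjusted p of 0.999 in the same test.

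**Figure D5:**
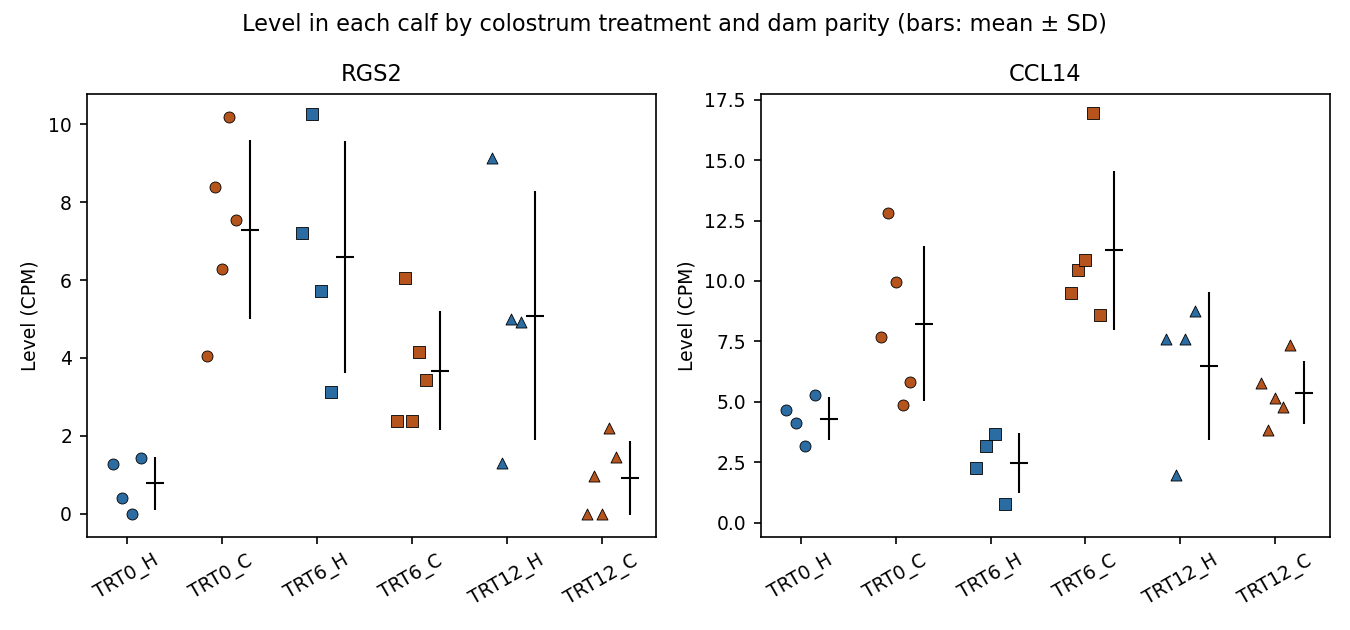
Level (CPM) of RGS2 and CCL14 in each calf by treatment and parity, H calves in blue (n = 4 per group) and C calves in orange (n = 5 per group), with the mean ± SD beside the points. Mean RGS2 was higher in C in TRT0 and higher in H in TRT12, and mean CCL14 was higher in C in TRT6.

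Parity differences were also set side by side between sets of calves that shared no animal. Lane 6 held no TRT0_C calf, so lanes 6 and 7 also differed in treatment. Across the 14625 genes, which are not independent, Pearson's r (Spearman's rho) between the differences was 0.076 (0.136) for TRT0 and TRT6, -0.137 (-0.182) for TRT0 and TRT12, -0.022 (-0.085) for TRT6 and TRT12, and 0.018 (0.045) for lanes 6 and 7. The sign was the same in all 3 treatments for 3238 genes (22.1%), 1596 larger in C and 1642 larger in H, and the same in both lanes for 7689 genes (52.6%). Independent and equally likely signs would agree in all 3 treatments for a larger share of genes. In both lanes they would agree for a slightly smaller share. These counts are therefore no measure of a reproducible parity difference.

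The spread between calves was also compared, as the distance of each calf from the mean of its group over all tested genes on the log2 CPM scale. The distance was 55.8 ± 5.98 (SD, n = 15) in C and 58.9 ± 8.39 (SD, n = 12) in H. The difference of 3.06 was within the range given by permuting parity within treatments (permutation test, two-sided, p = 0.401). The largest distance, 73.4, belonged to the TRT12_H calf with the high interferon genes, and the smallest, 45.2, to a TRT0_H calf.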

How the data were processed

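Colon RNA of 27 calves was sequenced (TruSeq, 1 library per calf). The authors deposited raw counts of reads for each Ensembl gene, made by aligning reads to UMD3.1 with TopHat2 2.1.1, sorting with SAMtools 1.4 and counting with HTSeq, with reads shared by several genes left out. The strand setting is not given in the sources used here, so overlapping or antisense genes are uncertain, and genes with near-identical copies are undercounted. Totals of 1163791 to 4202593 counts put 3 counts, taken as the floor, at 0.714 to 2.58 CPM. These totals are those of the deposited counts and not the sequencing depth that the paper reports, which was far higher. The reason for the gap was not tested. Intervals cover the spread between calves. Dam parity is not in the deposited labels and was taken from the sample sheet supplied with the paper. Lanes were read from library names.

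CPM used library totals. The genes that reached 1 CPM in 12 or more calves were fitted with edgeR 4.0.16 in R 4.3.3 (TMM factors 0.886 to 1.15, common biological coefficient of variation 0.225) with treatment and parity as terms, and with 6 group means for the interaction and within-treatment values. The quasi-likelihood test gave p, adjusted over all tested genes, and the SE is the log2 fold change divided by the square root of F. Differences are C minus H on the log2 scale. Lane values come from fits of that lane alone, with treatment as a term, and lane 6 held no TRT0_C calf. Single values used 100000 permutations. The script for the tests was tested on simulated counts. Other settings tried were the likelihood ratio and exact tests of edgeR, DESeq2 1.42.0, limma-voom (limma 3.58.1), other scalings, filters, covariates and thresholds, lanes alone and leaving out each calf. The interaction alternatives other than the likelihood ratio test and the lane term, and the fit of the 22 calves of the first run, were added after the data were seen. Python 3.11.15 with numpy 2.4.6, pandas 2.3.3 and matplotlib 3.10.9 made the summaries and plots.

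Symbols were taken from names in supplementary tables of the paper that end in a bracketed symbol, which covered 4046 identifiers. Lists are therefore counted over members with a symbol found this way. The genes named are the 12 in each direction with the lowest p (with a symbol, a mean of 2 CPM or more and the same sign in all treatments). From each list the 2 of lowest p and the 2 of highest level were added. So were RGS2, CCL14, genes called in the interaction and STAT3, the only 1 of the study's 8 mucosal immunity genes with a symbol here. Which of the list genes are described was decided after their values were seen. The members and lists were chosen with earlier results of these data known. Some results are not reported here. No sequences are shown.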

Additional observations from a re-analysis of the deposited data

Results flagged for a closer look

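The parity difference of RGS2 differed between the treatments by the test of the interaction itself (adjusted p = 0.063 in edgeR's quasi-likelihood test), with levels of 0 to 23 reads per calf.

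In groups of 4 or 5 calves, single calves stood far from the rest for 5 of the 10 genes examined, and for no library total. Of 66 groups, 12 were marked. The rule marks about 1 in 20 groups of normally distributed values. Some of these genes were chosen after their values were seen, and CPM is skewed, so the count of 12 is no measure against chance. MIR2904-1 stood apart at 928 CPM in TRT0_H, 4438 CPM in TRT6_H, 56.2 CPM in TRT6_C and 173.5 CPM in TRT12_C. ENSBTAG00000045494 stood apart at 157 CPM in TRT0_C, and ENSBTAG00000031825 at 17.6 CPM in TRT6_C, 21.8 CPM in TRT12_C and 189 CPM in TRT12_H. CCL14 stood apart at 17.0 CPM in TRT6_C and, on the low side, at 1.97 CPM in TRT12_H, and COCH at 3.30 CPM in TRT0_H and 12.6 CPM in TRT6_C. The groups of C and H as wholes, with 15 and 12 calves, were too large for this check.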

How the results depend on the processing

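The count of genes called between C and H was 0 under 41 of 46 other settings. It was 2 with edgeR's likelihood ratio test, 1 with edgeR's exact test, 1 with DESeq2 and 3 without a filter on low counts, and 0 to 1 when 1 calf was left out (1 without TRT0 replicate 8). Every gene called was larger in H. Genes at an unadjusted p under 0.05 numbered 277 (core genes only) to 729 (no filter), and 668 in lane 6 alone (440 larger in C, 228 in H), 299 in lane 7 alone and 570 without TRT12 replicate 3. The count for the interaction was 2 with edgeR's likelihood ratio test, 0 with lane as a further term, 0 with limma-voom, 0 at an adjusted p of 0.05 and 0 to 1 when 1 calf was left out (0 without any of TRT0 replicates 2 to 9, TRT6 replicates 1, 8 and 9, or TRT12 replicates 1, 4, 5 and 9). The difference in spread kept its direction (1.13 to 4.65 without 1 calf). Of 64 genes followed across the settings, 11 changed sign under some setting. In lane 6 alone SST was 0.056, SLC26A3 -0.038, CA1 -0.16, ADIPOQ 0.85 and FCGRT -0.034. In lane 7 alone ENSBTAG00000045494 was 0.97, DUOX2 0.18, IGF2R 0.0068, PIGR 0.0094 and RGS2 0.67. COL3A1 was 0.0033 without TMM factors, ADIPOQ 0.048 with limma-voom and 0.088 with lane as a further term, and RGS2 0.051 with limma-voom and 0.12 in the 22 calves of the first run. Without 1 calf FCGRT lay between -0.0052 and 0.065, and RGS2 between -0.37 and 0.011. The cause of these changes was not tested. No paired analysis was possible because every group holds different calves and the labels number no replicates, so the replicate numbers used here only name calves.

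The depth of the deposited counts limits the low genes: at 1163791 counts 3 reads are 2.58 CPM. Genes under 10 CPM seldom had an interval within 1.5-fold. Parity and treatment cannot be told apart in lane 1 of the second run.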

Other observations

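The genes ENSBTAG00000046133, ENSBTAG00000045632 and ENSBTAG00000047046 have no symbol and were chosen after their values were seen. They had the 3 largest fitted differences toward C and, like the lowest-p genes of the report, were high in some calves and low in the others. ENSBTAG00000046133 exceeded 100 CPM in 2 C calves and 1 H calf, with highest values of 4558 and 3421 CPM and a difference of 2.11 (SE 1.77). ENSBTAG00000045632 exceeded 100 CPM in 6 C calves and 4 H calves, with highest values of 2810 and 214 CPM and medians of 5.13 and 5.02 CPM (2.20, SE 1.48). ENSBTAG00000047046 exceeded 100 CPM in 2 C calves and 1 H calf, with highest values of 2250 and 827 CPM (2.30, SE 1.14). The unadjusted p in edgeR's quasi-likelihood test was over 0.05 for each. ENSBTAG00000045632 was also the gene beside RGS2 that edgeR's likelihood ratio test called for the interaction.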
